A study of Mus musculus with 4 samples.

Results

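The 10 genes described here encode the machinery with which an animal cell splits after mitosis, measured in cultured heart muscle cells of newborn mice given 1 of 2 microRNA mimics. The set comprised Prc1, Racgap1, Kif23, Kif20a and Kif20b of the central spindle, the kinase Aurkb, the RhoA activator Ect2, the ring proteins Anln and Cit, and the abscission protein Cep55. They were chosen by gene symbol, with no threshold on a measured value. They accounted for 16 of 36065 transcript records and for 10 of 27269 genes, and all 10 were among the 13503 genes compared.

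In late mitosis the separating chromosomes leave behind an antiparallel bundle of microtubules, the central spindle, which marks where the cell will divide. Proteins on that bundle switch on the GTPase RhoA at the cortex, a ring of actin and myosin II closes, and the remaining bridge, the midbody, is cut by ESCRT proteins in a step called abscission. Rodent cardiomyocytes leave the cell cycle soon after birth, and many of them replicate their DNA and divide their nuclei without completing cytokinesis, which leaves cells with more than a single nucleus.

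Cells were prepared from CD1 mice at postnatal day 1. They were given the human microRNA mimic hsa-miR-199a-3p at 50 nM, the human microRNA mimic hsa-miR-590-3p at 50 nM, the Caenorhabditis elegans microRNA cel-miR-67 at 50 nM as a control mimic, or a mock transfection, by reverse transfection with Lipofectamine RNAiMAX, and RNA was taken 72 h later. Each condition had 1 library, which makes 4 in all, and the labels do not state how many animals gave the cells. With 1 library per condition no test was possible, so no difference given here was checked in a replicate, and differences between cultures and effects of a mimic cannot be told apart. RefSeq lists the mature mouse microRNA below at 2 loci, shown with its seed (bases 2 to 8, which pair with targets) in capitals because the widest differences among these genes came with the human mimic of that name.
mmu-miR-199a-3p, Mir199a-2 at chr1:162217883-162217904 (GRCm38.p6, plus strand) and Mir199a-1 at chr9:21496498-21496519 (minus strand): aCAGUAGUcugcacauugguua
The sequence of miR-590-3p was not used here.

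The libraries held 38745528 reads for hsa-miR-199a-3p, 34452240 for hsa-miR-590-3p, 34255689 for cel-miR-67 and 31638930 for mock, of which between 67.6% and 68.7% were uniquely placed. Of 14 cardiomyocyte markers none was at 0 reads in any library, and their summed level was 46036 CPM under hsa-miR-199a-3p, 47264 under hsa-miR-590-3p, 61825 under cel-miR-67 and 69083 in mock. Here CPM is the read count scaled to the library total after TMM adjustment. All 10 fibroblast markers were also detected, with 12072 CPM (hsa-miR-199a-3p), 11644 CPM (hsa-miR-590-3p), 10387 CPM (cel-miR-67) and 10775 CPM (mock). The collagens Col1a1, Col1a2 and Col3a1 made up most of that sum, with 6089, 3398 and 1901 CPM under hsa-miR-199a-3p. Most of the other fibroblast markers were below both cel-miR-67 and mock there, so the sum does not describe them. Markers of smooth muscle and pericytes summed to 4477 to 6397 CPM, of endothelium to 460 to 515 CPM and of epicardium to 340 to 445 CPM. Those of macrophages and leukocytes summed to 7.47 to 21.4 CPM. None of these markers was at 0, but some rested on very few reads. Under cel-miR-67 the macrophage marker C1qb had 1 read and the endothelial marker Cldn5 had 2. The cultures thus held RNA of other heart cells beside that of cardiomyocytes, and in such bulk libraries more dividing cells and more RNA per dividing cell cannot be told apart, nor can the cell type that gave the reads of the cytokinesis genes.

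Under hsa-miR-590-3p all 10 cytokinesis genes were above both control libraries, and under hsa-miR-199a-3p 9 of 10 were, Cep55 being the exception. Among all genes compared, 35.6% were above both controls under hsa-miR-590-3p and 40.2% under hsa-miR-199a-3p. At least 1.5-fold above both controls were 6 cytokinesis genes under hsa-miR-199a-3p (Racgap1, Kif23, Kif20a, Prc1, Aurkb and Cit) against 6.72% of all genes, and likewise 6 under hsa-miR-590-3p (Anln, Racgap1, Kif23, Kif20b, Prc1 and Cit) against 2.68%. Aurkb under hsa-miR-199a-3p was the single member at least 2-fold above both controls, a difference that 2.4% of all genes showed, and no member reached it under hsa-miR-590-3p, where 0.355% of genes did. That count depended on the scaling, since with libraries scaled to their totals alone 4 members were at least 2-fold above both controls under hsa-miR-199a-3p. Both microRNAs were set against the same 2 control libraries, so these counts are not independent of each other.

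The median log2 ratio of the 10 genes under hsa-miR-199a-3p was 0.82 against cel-miR-67 and 0.96 against mock, and under hsa-miR-590-3p it was 0.70 and 0.80. Over all genes the 4 medians lay between -0.01 and 0.00. The members were spread more widely under hsa-miR-199a-3p, with log2 ratios against cel-miR-67 between -0.48 (Cep55) and 1.05 (Aurkb), than under hsa-miR-590-3p, where they lay between 0.49 (Aurkb) and 0.84 (Cit). The same held for all genes, whose robust SD was 0.44 under hsa-miR-199a-3p and 0.27 under hsa-miR-590-3p. No cytokinesis gene was at least 1.5-fold below both controls, which 8.38% of all genes were under hsa-miR-199a-3p and 1.36% under hsa-miR-590-3p.

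**Figure D1:**
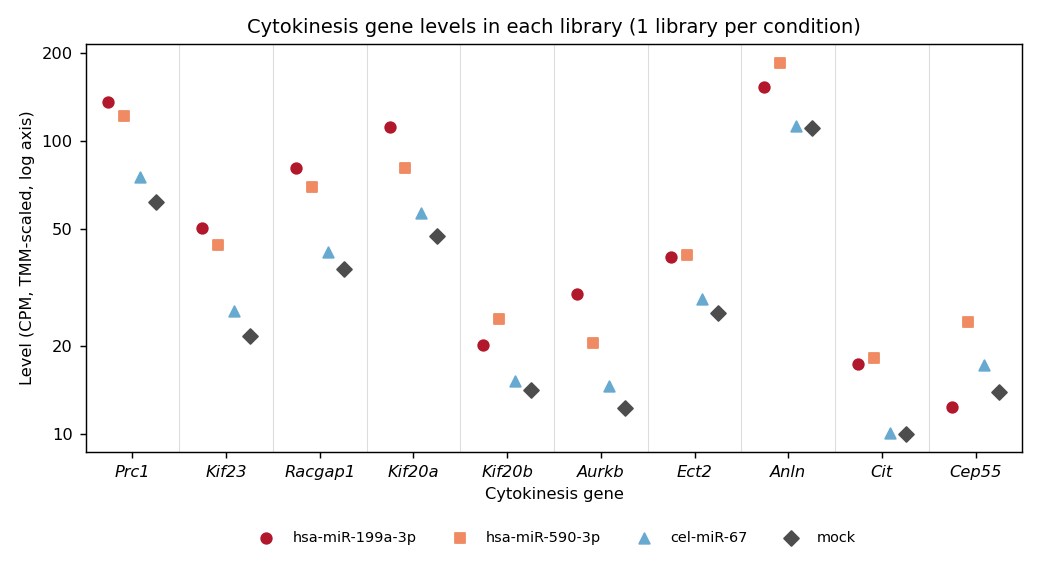
Levels of the 10 cytokinesis genes in CPM on a log axis, 1 point per library in the order hsa-miR-199a-3p, hsa-miR-590-3p, cel-miR-67 and mock. Both microRNA points lie above both control points for 9 genes, while for Cep55 the hsa-miR-199a-3p point, 12.3 CPM, is the lowest of the 4.

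Promoter sequence is shown for 6 of the members, because genes of late mitosis are known to share short promoter elements bound by cell cycle regulators. RefSeq windows of 250 bases before to 50 bases after the transcription start (GRCm38.p6) matched 8 of the 10 genes, all but Kif20a and Aurkb. The core of the cell cycle homology region, TTTGAA on either strand, occurred in 7 of these 8 genes, all but Cit, whereas 20.2% of 27025 genes with a window held it, and 14.0% of the 10119 that were also compared here. A CCAAT box, CCAAT on either strand, was found in 4 of the 8 (Ect2, Racgap1, Kif23 and Prc1) and in 43.0% of the compared genes. E2F-type sites, searched as TTTCCCGC, TTTGGCGC, TTTCGCGC or TTTGCCGC on either strand, were found in 0 of the 8 and in 4.74% of the compared genes. The 6 stretches below run 5′ to 3′ on the strand of the gene from 70 bases before to 30 bases after the start (for Prc1 and Cep55, the first of 2 starts), and capitals mark TTTGAA or CCAAT on either strand, so that TTCAAA and ATTGG are their reverse forms.
Prc1, chr7:80294381-80294480 (plus strand): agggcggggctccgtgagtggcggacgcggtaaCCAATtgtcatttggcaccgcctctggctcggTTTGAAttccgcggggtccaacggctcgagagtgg
Kif23, chr9:61946770-61946869 (minus strand): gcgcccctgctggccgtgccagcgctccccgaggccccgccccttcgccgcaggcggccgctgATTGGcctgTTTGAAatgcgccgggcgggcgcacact
Racgap1, chr15:99651627-99651726 (minus strand): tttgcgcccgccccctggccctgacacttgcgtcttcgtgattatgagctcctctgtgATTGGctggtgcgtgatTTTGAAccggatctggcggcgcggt
Kif20b, chr19:34922288-34922387 (plus strand): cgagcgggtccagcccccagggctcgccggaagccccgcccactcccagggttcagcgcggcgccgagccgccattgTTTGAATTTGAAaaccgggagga
Cep55, chr19:38054914-38055013 (plus strand): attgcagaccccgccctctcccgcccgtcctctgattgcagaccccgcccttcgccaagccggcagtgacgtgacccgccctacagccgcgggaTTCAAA
Cit, chr5:115845586-115845685 (plus strand): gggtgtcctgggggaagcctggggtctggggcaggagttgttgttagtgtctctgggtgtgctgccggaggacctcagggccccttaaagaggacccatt
In Prc1, Kif23, Racgap1 and Kif20b the TTTGAA core lay within 19 bases of the start shown and on the strand of the gene. In Prc1 it covered positions -5 to 1, counted with 1 as the first transcribed base, and in Racgap1 positions 6 to 11. Kif20b held 2 cores side by side, at 8 to 13 and 14 to 19. Counted from the second start of Prc1, its core lay at -30 to -25. The stretches of Anln and Ect2 are not shown. Anln held the core in reverse at 22 to 27 and forward at 29 to 34. Ect2 held it at -114 to -109 and 40 to 45 from the first of its 2 starts. From the second start these lay at -138 to -133 and 16 to 21. Cep55 held the core in reverse, at 25 to 30 from the first of its 2 starts and at -33 to -28 from the second. Cit held neither element. Whether these letters bear on the levels of the genes was not tested, and a match is a description and not a shown binding site.

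The share of promoters with the core differed between the related lists, and among the compared genes it was 14.0%. It was present in 6 of 8 windows of central spindle and chromosomal passenger partners and in 13 of 18 of kinetochore, checkpoint and spindle genes. Among regulators of G2/M transcription 3 of 9 held it. Of the remaining lists, 2 of 17 DNA replication genes, 2 of 16 genes of RhoA signalling and the contractile ring, and 3 of 17 abscission genes held it. Those shares were near that of the compared genes.

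Among the central spindle genes, Prc1 had the highest level per length of all 10, Prc1 being the protein that bundles antiparallel microtubules. Its 5474 reads under hsa-miR-199a-3p and 4285 under hsa-miR-590-3p corresponded to 136 and 121 CPM, against 2510 reads or 75.0 CPM under cel-miR-67 and 1883 reads or 62.0 CPM in mock. Both microRNA libraries were thus above both controls, by log2 ratios of 0.86 (95% counting interval 0.79 to 0.93) against cel-miR-67 and 1.13 against mock for hsa-miR-199a-3p, and of 0.69 (0.62 to 0.76) and 0.97 for hsa-miR-590-3p. These intervals are exact for the counts and cover counting error only, because each condition had 1 library. Reads copied by PCR and carrying no molecular identifier are not separate molecules, so the intervals may be too narrow even for counting error.

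Racgap1 and Kif23 encode the GTPase-activating protein and the kinesin that together form centralspindlin, the complex that brings Ect2 to the middle of the spindle. Racgap1 had 81.0 CPM under hsa-miR-199a-3p and 69.8 CPM under hsa-miR-590-3p, against 41.6 CPM under cel-miR-67 and 36.5 CPM in mock. Kif23 had 50.3 CPM under hsa-miR-199a-3p and 44.2 CPM under hsa-miR-590-3p, against 26.2 CPM under cel-miR-67 and 21.5 CPM in mock. The genes moved alike in every library. Against cel-miR-67, the log2 ratio of Racgap1 was 0.96 (0.87 to 1.05) under hsa-miR-199a-3p and 0.75 (0.65 to 0.84) under hsa-miR-590-3p, and that of Kif23 was 0.94 (0.83 to 1.06) under hsa-miR-199a-3p and 0.76 (0.64 to 0.88) under hsa-miR-590-3p. Within a library, the ratio of Kif23 to Racgap1 in RPKM (reads scaled to the length of the record and to the library total) was 0.547 under hsa-miR-199a-3p, 0.558 under hsa-miR-590-3p, 0.554 under cel-miR-67 and 0.519 in mock. The counting intervals of these 4 ratios all overlapped, from 0.470 at the lowest bound to 0.604 at the highest.

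Kif20a is the kinesin that carries the chromosomal passenger complex onto the central spindle, and Aurkb is the kinase of that complex. Kif20a had 4480 reads or 111 CPM under hsa-miR-199a-3p and 2862 reads or 81.0 CPM under hsa-miR-590-3p, against 1904 reads or 56.9 CPM under cel-miR-67 and 1436 reads or 47.3 CPM in mock. Aurkb had 1212 reads or 30.1 CPM under hsa-miR-199a-3p and 721 reads or 20.4 CPM under hsa-miR-590-3p, against 487 reads or 14.6 CPM under cel-miR-67 and 371 reads or 12.2 CPM in mock. For both genes the libraries kept a strict order, with hsa-miR-199a-3p highest, then hsa-miR-590-3p, cel-miR-67 and mock. Under hsa-miR-199a-3p Aurkb stood 2.07-fold (1.86 to 2.30) above cel-miR-67 and 2.46-fold (2.19 to 2.78) above mock, so the lower bound against cel-miR-67 fell short of 2-fold. Kif20a stood 1.95-fold (1.85 to 2.06) above cel-miR-67 and 2.35-fold above mock. Under hsa-miR-590-3p the folds against cel-miR-67 were 1.40 (1.25 to 1.57) for Aurkb and 1.42 (1.34 to 1.51) for Kif20a. In RPKM, Kif20a was 2.08 times as high as Aurkb under hsa-miR-199a-3p, 2.23 times under hsa-miR-590-3p, 2.19 times under cel-miR-67 and 2.17 times in mock, again with overlapping intervals.

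Kif20b, a kinesin of the same subfamily that works at the spindle midzone and midbody, was ordered otherwise. It had 806 reads or 20.01 CPM under hsa-miR-199a-3p and 872 reads or 24.7 CPM under hsa-miR-590-3p, against 506 reads or 15.1 CPM under cel-miR-67 and 429 reads or 14.1 CPM in mock. Both microRNA libraries were again above both controls, but here hsa-miR-590-3p was the higher. The log2 ratio against cel-miR-67 was 0.40 (0.24 to 0.57) under hsa-miR-199a-3p and 0.70 (0.55 to 0.87) under hsa-miR-590-3p.

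Ect2, the exchange factor that loads RhoA with GTP at the equator, had 1620 reads or 40.2 CPM under hsa-miR-199a-3p and 1446 reads or 40.9 CPM under hsa-miR-590-3p, against 965 reads or 28.9 CPM under cel-miR-67 and 788 reads or 25.9 CPM in mock. Its level was thus similar in both microRNA libraries and above both controls, by log2 ratios against cel-miR-67 of 0.48 (0.36 to 0.60) under hsa-miR-199a-3p and 0.50 (0.39 to 0.62) under hsa-miR-590-3p. Against mock the log2 ratio was 0.63 under hsa-miR-199a-3p and 0.66 under hsa-miR-590-3p, the lowest of the 10 genes for hsa-miR-590-3p in that contrast.

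Anln encodes anillin, the scaffold that ties RhoA, actin, myosin and septins together in the ring, and had the highest read number of the set. It had 6154 reads or 153 CPM under hsa-miR-199a-3p and 6550 reads or 185 CPM under hsa-miR-590-3p, against 3764 reads or 113 CPM under cel-miR-67 and 3372 reads or 111 CPM in mock. The controls were nearly equal, and hsa-miR-590-3p was highest. Its log2 ratio against cel-miR-67 was 0.44 (0.38 to 0.50) under hsa-miR-199a-3p and 0.72 (0.66 to 0.78) under hsa-miR-590-3p. Cit, citron kinase of the ring and midbody, had 17.3 CPM under hsa-miR-199a-3p and 18.1 CPM under hsa-miR-590-3p, against 10.1 CPM under cel-miR-67 and 10.004 CPM in mock. It was thus higher to a like degree in both, with log2 ratios against cel-miR-67 of 0.78 (0.59 to 0.97) under hsa-miR-199a-3p and 0.84 (0.65 to 1.04) under hsa-miR-590-3p, the highest of the 10 genes for hsa-miR-590-3p in that contrast.

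Cep55 is the coiled-coil protein that in human cells sits at the midbody and recruits the ESCRT adaptors ALIX and TSG101. It had 497 reads or 12.3 CPM under hsa-miR-199a-3p and 854 reads or 24.2 CPM under hsa-miR-590-3p, against 575 reads or 17.2 CPM under cel-miR-67 and 421 reads or 13.9 CPM in mock. The hsa-miR-199a-3p library was the lowest of the 4 and the hsa-miR-590-3p library the highest. Under hsa-miR-199a-3p the log2 ratio was -0.48 (-0.65 to -0.30) against cel-miR-67 and -0.17 (-0.36 to 0.02) against mock, an interval that includes 0, and 41.9% of all genes were below both controls as Cep55 was. Under hsa-miR-590-3p, where 36.6% of all genes and no cytokinesis gene were below both controls, Cep55 stood at 0.49 (0.34 to 0.65) against cel-miR-67 and 0.80 (0.63 to 0.97) against mock.

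**Figure D2:**
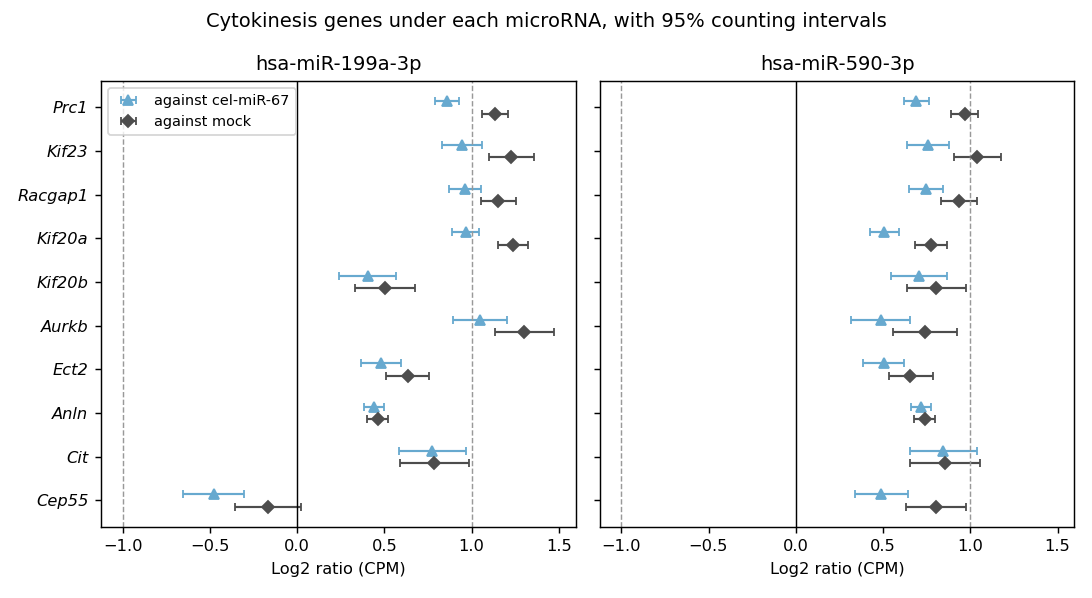
Log2 ratios of CPM for the 10 genes under hsa-miR-199a-3p (left) and hsa-miR-590-3p (right), against cel-miR-67 (triangles) and against mock (diamonds), with bars for 95% counting intervals and dashed lines at 2-fold. Every interval lies above 0 except those of Cep55 under hsa-miR-199a-3p, at -0.48 and -0.17.

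Cep55 also stood apart from its partners within the hsa-miR-199a-3p library. In RPKM, Cep55 stood at 0.320 (95% counting interval 0.290 to 0.354) of Kif23 under hsa-miR-199a-3p and at 0.722 (0.663 to 0.785) under hsa-miR-590-3p, against 0.851 (0.764 to 0.946) under cel-miR-67 and 0.830 (0.733 to 0.940) in mock. Relative to Prc1 it stood at 0.105 under hsa-miR-199a-3p and 0.232 under hsa-miR-590-3p, against 0.262 with cel-miR-67 and 0.254 in mock. The hsa-miR-199a-3p library thus lay apart from the other 3, whose intervals overlapped each other for either ratio.

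Cep55, Ect2 and Kif20a are the members with 3 transcript records each, and few of their reads were uniquely placed, 1.28% for Cep55, 1.78% for Kif20a and 3.34% for Ect2. For the other 7 genes at least 99.5% were. The files do not say with which records the shared reads were shared or how they were assigned, so the split among records is uncertain. For Cep55 the unique reads numbered 5 under hsa-miR-199a-3p and 12 under hsa-miR-590-3p, against 10 with cel-miR-67 and 3 in mock. On unique reads alone the log2 ratio for hsa-miR-199a-3p was -1.18 against cel-miR-67 but 0.31 against mock, so the direction against mock turned at this depth. Cep55 variant 2, the record with most reads, was assigned 235 reads under hsa-miR-199a-3p and 337 under hsa-miR-590-3p, against 325 with cel-miR-67 and 285 in mock. Its share of the reads of the gene was 47.3% under hsa-miR-199a-3p and 39.5% under hsa-miR-590-3p, against 56.5% with cel-miR-67 and 67.7% in mock.

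The other records of these genes also differed between libraries. Cep55 variant 3 was assigned 135 reads under hsa-miR-199a-3p and 303 under hsa-miR-590-3p, against 119 with cel-miR-67 and 70 in mock. Ect2 variant 3 made up 31.0% of the reads of its gene under hsa-miR-199a-3p and 34.6% under hsa-miR-590-3p, against 20.6% with cel-miR-67 and 23.9% in mock. In Kif20a a single record, variant 3, held most reads in every library, 91.6% under hsa-miR-199a-3p and 86.6% under hsa-miR-590-3p, against 80.8% with cel-miR-67 and 86.5% in mock.

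**Figure D3:**
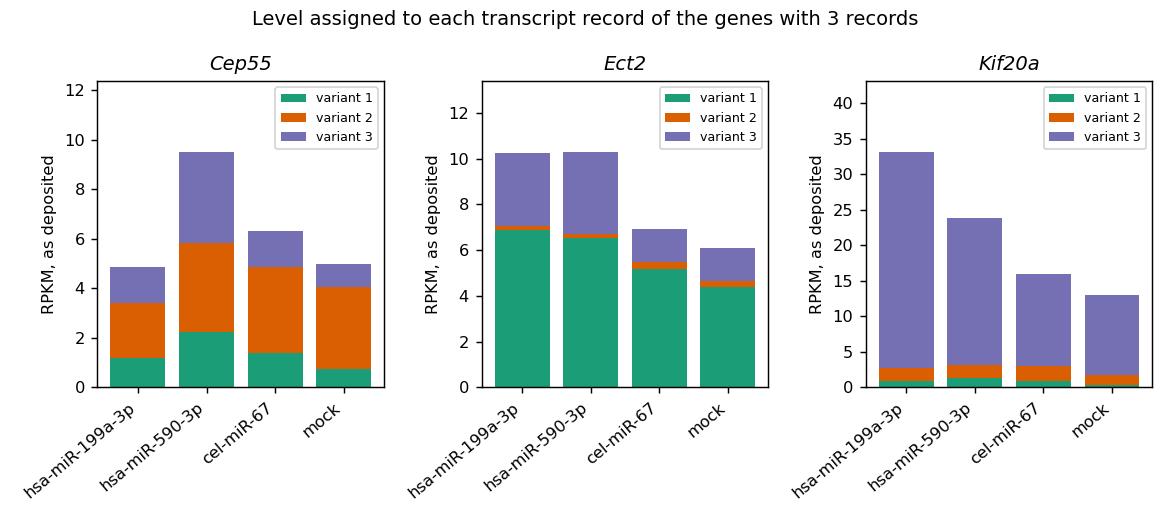
Deposited RPKM assigned to each of the 3 transcript records of Cep55, Ect2 and Kif20a, stacked, for hsa-miR-199a-3p, hsa-miR-590-3p, cel-miR-67 and mock. The Cep55 stack is 4.87 RPKM under hsa-miR-199a-3p and 9.52 under hsa-miR-590-3p, against 6.32 with cel-miR-67 and 4.98 in mock, and in Kif20a variant 3 makes up most of each stack.

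Set directly against each other, the microRNA libraries ranked the cytokinesis genes differently. Under hsa-miR-199a-3p 5 of the 10 were higher than under hsa-miR-590-3p, against 49.6% of all genes, so the number itself was near that of genes at large. The 5 were Aurkb, with a log2 ratio of 0.56 (0.43 to 0.70), Kif20a with 0.46 (0.39 to 0.53), Racgap1 with 0.22 (0.14 to 0.29), Kif23 with 0.19 (0.09 to 0.28) and Prc1 with 0.17 (0.11 to 0.22). Each of these encodes a protein of the central spindle or the passenger complex. Ect2, at -0.02 (-0.13 to 0.08), and Cit, at -0.07 (-0.23 to 0.09), did not differ beyond counting error. Anln, at -0.28 (-0.33 to -0.23), and Kif20b, also of the central spindle, at -0.30 (-0.44 to -0.16), were lower under hsa-miR-199a-3p, and Cep55 was the lowest at -0.97 (-1.13 to -0.81), or 0.511-fold. Over all genes the robust SD of this ratio was 0.39, so Cep55, Aurkb and Kif20a lay beyond it and the other 7 within. A higher level under hsa-miR-199a-3p was not particular to central spindle and passenger genes. Of the DNA replication genes listed below, all but Cdt1, at -0.58, were higher there too. Among the central spindle and passenger partners listed below, Kif4 at -0.12, Shcbp1 at -0.14 and Arhgap11a at -0.01 were lower, and the others were higher.

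**Figure D4:**
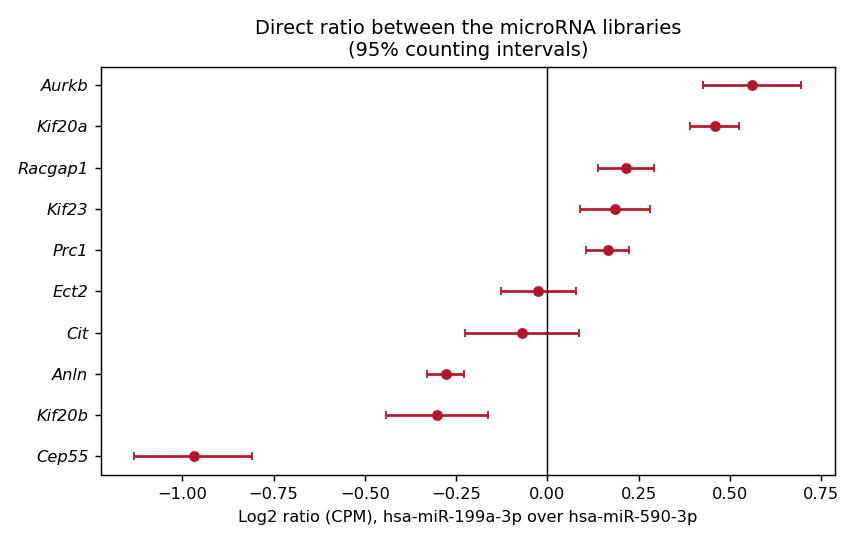
Log2 ratio of CPM, hsa-miR-199a-3p over hsa-miR-590-3p, for each of the 10 genes, with 95% counting intervals. The 5 genes from Aurkb to Prc1 lie above 0, the intervals of Ect2 and Cit include 0, and Anln, Kif20b and Cep55 lie below 0, Cep55 at -0.97.

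The controls were not equal for these genes. All 10 were higher under cel-miR-67 than in mock, against 50.3% of all genes, with a median log2 ratio of 0.22 over the members and 0.00 over all genes. The differences ranged between 0.01 (Cit) and 0.31 (Cep55), and 7 of the 10 counting intervals lay above 0, those of Anln, Kif20b and Cit including it. Prc1, Kif23 and Kif20a differed by 0.28, 0.28 and 0.27. The ratios against mock were therefore above those against cel-miR-67 for every gene under either microRNA, and against mock alone all 10 genes reached 1.5-fold under hsa-miR-590-3p. Kif23 was then also past 2-fold under hsa-miR-590-3p, with 2.06-fold (1.88 to 2.26).

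Per length, the order of levels was Prc1, Anln, Kif20a, Racgap1, Kif23, Aurkb, Ect2, Cep55, Kif20b and Cit, by mean RPKM over the 4 libraries. Prc1 had 46.6 RPKM under hsa-miR-199a-3p and 41.0 under hsa-miR-590-3p, against 24.1 with cel-miR-67 and 19.6 in mock, while Cit had 2.60 under hsa-miR-199a-3p and 2.69 under hsa-miR-590-3p, against 1.43 with cel-miR-67 and 1.39 in mock. Some neighbours in this order changed places between libraries. Anln was above Prc1 in mock (19.66 against 19.61 RPKM) and below Kif20a under hsa-miR-199a-3p (29.3 against 33.2). Aurkb was above Kif23 under hsa-miR-199a-3p (15.98 against 15.2), and Ect2 was above Aurkb in mock (6.11 against 5.99). Both gaps in mock were small, and no counting interval was computed for these pairs. The other 5 neighbouring pairs kept their order in all 4 libraries.

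The partners of these genes, a list of 10 other proteins of the central spindle and the passenger complex, were higher as well. Under hsa-miR-199a-3p all 10 were at least 1.5-fold above both controls and 4 at least 2-fold, against 6.72% and 2.4% of all genes. Their median log2 ratios were 0.90 against cel-miR-67 and 1.19 against mock. Under hsa-miR-590-3p 9 reached 1.5-fold and 0 reached 2-fold, against 2.68% and 0.355% of all genes, with medians of 0.72 and 0.92. Birc5, survivin of the passenger complex, had 58.6 CPM under hsa-miR-199a-3p and 37.5 CPM under hsa-miR-590-3p, against 22.6 CPM under cel-miR-67 and 19.9 CPM in mock, with 16.9% of its reads uniquely placed. Here and in the lists that follow, the first log2 ratio of a pair takes cel-miR-67 as the control and the second takes mock. Ckap2, a microtubule-binding protein, had log2 ratios of 1.46 and 1.32 under hsa-miR-199a-3p and of 0.96 and 0.82 under hsa-miR-590-3p. Arhgap11a, a RhoA GTPase-activating protein and the most abundant gene of the list in CPM, had 0.90 and 1.13 under hsa-miR-199a-3p and 0.92 and 1.15 under hsa-miR-590-3p.

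Genes of the general contractile machinery lay closer to the medians of all genes. Of 19 genes of RhoA signalling and the contractile ring, 7 were above and 5 below both controls under hsa-miR-199a-3p. Over all genes 40.2% were above and 41.9% below. The medians of the list were -0.03 against cel-miR-67 and 0.19 against mock. Under hsa-miR-590-3p 5 were above and 6 below, against 35.6% and 36.6% of all genes, with medians of -0.06 and 0.03. At least 1.5-fold above both controls under hsa-miR-199a-3p were 6.72% of all genes, and 8.38% were at least 1.5-fold below. Myl9, a regulatory light chain of non-sarcomeric myosin II, was the single gene of the list at least 1.5-fold above both controls under hsa-miR-199a-3p, with log2 ratios of 0.60 and 1.24, against -0.59 and 0.05 under hsa-miR-590-3p. That count depended on the setting, being 2 with DESeq2 size factors and 3 with total-count scaling and with deposited RPKM. Septin8, at 0.582 and 0.734 under hsa-miR-199a-3p, fell just short of 1.5-fold against cel-miR-67. The RhoA-activated kinase Rock2 was at least 1.5-fold below both under hsa-miR-199a-3p, at -0.72 and -0.76, and stood at -0.04 and -0.07 with hsa-miR-590-3p. Myh9, a non-muscle myosin heavy chain and the most abundant of the list in CPM, stood at -0.05 and 0.24 with hsa-miR-199a-3p and at -0.10 and 0.18 with hsa-miR-590-3p.

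Among 22 genes of abscission and ESCRT, 10 were above and 11 below both controls under hsa-miR-199a-3p, with medians of -0.05 against cel-miR-67 and -0.02 against mock. Over all genes 40.2% were above and 41.9% below, so these counts were near those of genes at large. Under hsa-miR-590-3p 2 were above and 17 below both controls, against 35.6% and 36.6% of all genes, none of the list was 1.5-fold away, and the medians were -0.17 and -0.13. Under hsa-miR-199a-3p 2 of the 22 were at least 1.5-fold below both controls, near the 8.38% of all genes, and 0 were that far above, against 6.72%. Ttc19, a protein reported at the midbody of human cells and in mitochondria, stood at -0.90 and -0.91 there, with 4.79% of its reads uniquely placed. Chmp5, an ESCRT-III subunit, stood at -0.76 and -0.72. In the other direction Chmp4c stood at 1.02 and 0.56, short of 1.5-fold against mock. With total-count scaling and with deposited RPKM 1 gene was at least 1.5-fold above both controls. Pdcd6ip, which encodes ALIX and was the most abundant of the list in CPM, stood at -0.18 and -0.24 with hsa-miR-199a-3p and at -0.35 and -0.41 with hsa-miR-590-3p, with 0.18% of its reads uniquely placed. Cep55 under hsa-miR-590-3p was thus above both controls while most genes of the ESCRT list were below.

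Among 12 regulators of G2/M transcription, 9 were above both controls under each microRNA, most of them by less than 1.5-fold. Over all genes 40.2% were above both under hsa-miR-199a-3p and 35.6% under hsa-miR-590-3p. The medians of the list were 0.25 against cel-miR-67 and 0.18 against mock under hsa-miR-199a-3p, and 0.17 and 0.19 under hsa-miR-590-3p. Mybl2, the B-Myb factor of mitotic promoters, stood at 1.21 and 1.02 with hsa-miR-199a-3p and at 0.92 and 0.73 with hsa-miR-590-3p. Lin9, a core subunit of the complex that B-Myb joins, stood at 0.17 and 0.18 with hsa-miR-199a-3p and at 0.62 and 0.63 with hsa-miR-590-3p. Tfdp1, the dimer partner of E2F factors, stood at 0.84 and 0.79 with hsa-miR-199a-3p and at 0.17 and 0.12 with hsa-miR-590-3p, and Rbbp4, the most abundant, at 0.36 and 0.31 with hsa-miR-199a-3p and at -0.02 and -0.08 with hsa-miR-590-3p.

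Genes of earlier steps of the cycle were also above both controls. All 20 kinetochore, checkpoint and spindle genes were above both controls under either microRNA. Of all genes 40.2% were under hsa-miR-199a-3p and 35.6% under hsa-miR-590-3p. The medians of the list against cel-miR-67 were 0.78 under hsa-miR-199a-3p and 0.66 under hsa-miR-590-3p, close to those of the cytokinesis genes. Bub1b, a spindle checkpoint kinase, was highest under hsa-miR-199a-3p at 1.48 and 1.72, with the spindle kinase Aurka at 1.31 and 1.62. Under hsa-miR-590-3p the kinetochore protein Cenpf stood at 1.17 and 1.31, and Kif11, the kinesin that separates spindle poles, at 1.00 and 1.11. Tpx2, the most abundant of the list, stood at 0.62 and 0.89 with hsa-miR-199a-3p and at 0.58 and 0.85 with hsa-miR-590-3p, with 0.22% of its reads uniquely placed.

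All 20 DNA replication genes were above both controls under either microRNA as well. At least 1.5-fold above both were 17 of them under hsa-miR-199a-3p, against 6.72% of all genes. Under hsa-miR-590-3p 4 were, against 2.68%. The medians of the list against cel-miR-67 were 0.94 under hsa-miR-199a-3p and 0.50 under hsa-miR-590-3p. The 1.5-fold count under hsa-miR-590-3p depended on the setting. It was 9 with total-count scaling, with deposited RPKM and with mock as the only control, while that under hsa-miR-199a-3p was 18 in each. Mcm7, a helicase subunit, stood at 1.18 and 1.29 with hsa-miR-199a-3p and at 0.53 and 0.64 with hsa-miR-590-3p. Rfc4 of the clamp loader had 1.10 and 1.25 with hsa-miR-199a-3p and 0.35 and 0.50 with hsa-miR-590-3p. Cdt1, which loads that helicase, stood at 0.27 and 0.35 with hsa-miR-199a-3p and at 0.85 and 0.93 with hsa-miR-590-3p. Prim1, a primase subunit, had 1.07 and 1.19 with hsa-miR-199a-3p and 0.66 and 0.79 with hsa-miR-590-3p. Rrm1 of ribonucleotide reductase, the most abundant, had 0.47 and 0.72 with hsa-miR-199a-3p and 0.15 and 0.39 with hsa-miR-590-3p.

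**Figure D5:**
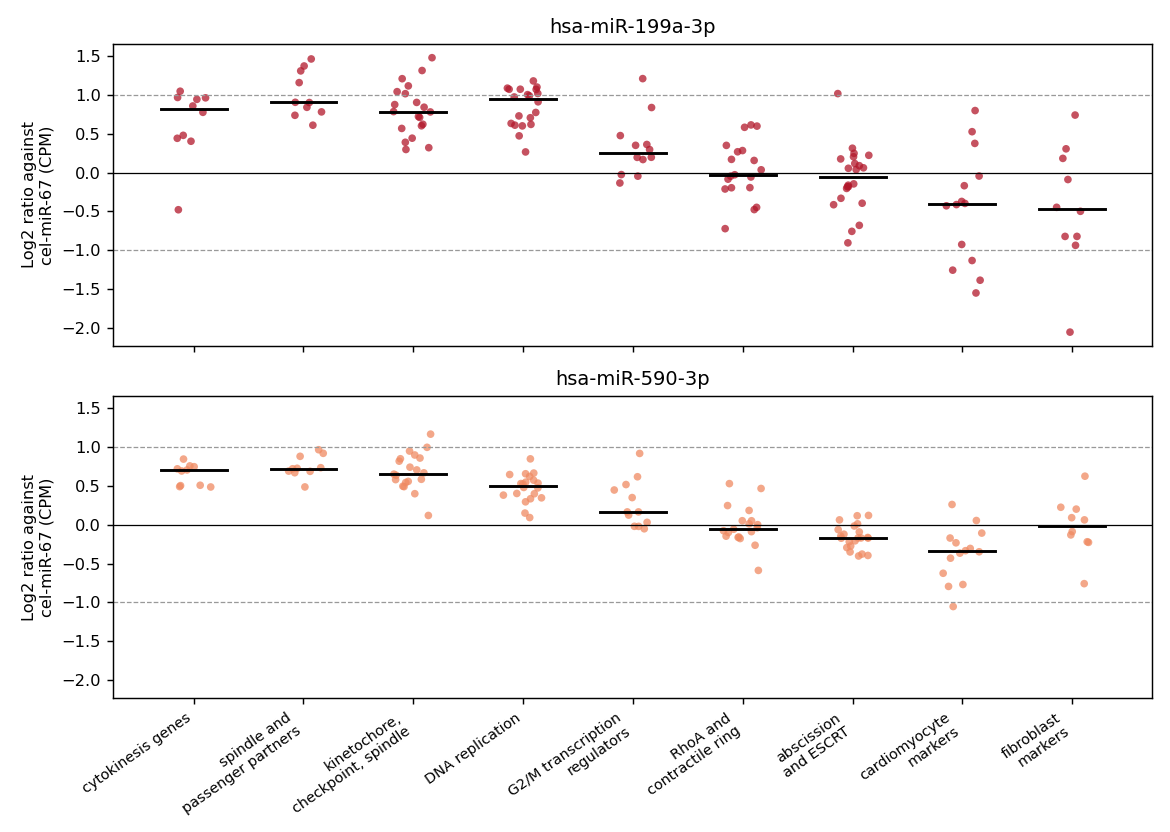
Log2 ratio of CPM against cel-miR-67 of every measured gene of 9 lists, under hsa-miR-199a-3p (upper panel) and hsa-miR-590-3p (lower panel), with bars for list medians, dashed lines at 2-fold and points shifted sideways at random for legibility. The cytokinesis genes, with medians of 0.82 under hsa-miR-199a-3p and 0.70 under hsa-miR-590-3p, lie with the spindle partners and kinetochore genes, while the RhoA and ESCRT lists lie around 0 and the cardiomyocyte markers below it.

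Outside the set, the genes whose levels followed the median cytokinesis profile most closely were Kntc1, Chtf18, Raver2, Hjurp and Kif14. Likeness was the Euclidean distance of log2 CPM, centred over the 4 libraries, among 10524 genes that averaged 5 CPM or more, and it rests on only 4 points. Kntc1, at a distance of 0.036, had 40.3 CPM under hsa-miR-199a-3p and 38.4 CPM under hsa-miR-590-3p, against 23.4 CPM under cel-miR-67 and 21.2 CPM in mock. The other 4 lay at distances between 0.047 and 0.090. Of the members themselves Prc1 was closest to the profile, at 0.13, and Cep55 farthest, at 0.99.

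Marker genes of the cultures moved beside the cytokinesis genes, and their part in these results was not tested. Of 14 cardiomyocyte markers, 11 were below both controls under hsa-miR-199a-3p, 5 of them at least 1.5-fold, against 41.9% and 8.38% of all genes. Under hsa-miR-590-3p 12 were below both controls, 2 of them at least 1.5-fold, against 36.6% and 1.36% of all genes. The 2 markers above both controls under hsa-miR-199a-3p, named here after their values were seen, were the myosin light chains Myl7, at 0.80 and 0.54, and Myl3, at 0.38 and 0.02. Myh6, the adult alpha myosin heavy chain, stood at -0.41 and -0.56 with hsa-miR-199a-3p and at -0.33 and -0.48 with hsa-miR-590-3p. Tnnt2, cardiac troponin T, had -0.43 and -0.58 with hsa-miR-199a-3p and -0.77 and -0.93 with hsa-miR-590-3p. Of the reads of Myh6, Tnnt2, Ttn, Pln and Postn at most 4.08% were uniquely placed. At least 2-fold below both controls under hsa-miR-199a-3p were the sarcomeric protein Ttn at -1.13 and -1.25, the calcium release channel Ryr2 at -1.38 and -1.14, the calcium pump regulator Pln at -1.55 and -1.43, and the natriuretic peptide Nppa at -1.25 and -1.10. Of the 10 fibroblast markers 6 were below both controls under hsa-miR-199a-3p, 4 of them at least 1.5-fold, against 41.9% and 8.38% of all genes. Another 3, the collagens Col1a1, Col1a2 and Col3a1, were above both controls, against 40.2% of all genes. Postn, a matricellular protein, stood at -2.05 and -1.61, and Col1a1, a collagen I chain, at 0.31 and 0.22. Of the same markers 2 were below and 4 above both controls under hsa-miR-590-3p, against 36.6% and 35.6% of all genes. Of 7 measured smooth muscle and pericyte markers 3 were above and 3 below both controls under hsa-miR-199a-3p, against 40.2% and 41.9% of all genes. The summed level of smooth muscle and pericyte markers was highest there. Of the contractile markers, Cnn1 at 1.21 and 0.88, Acta2 at 0.48 and 0.77, and Myh11 at 0.20 and 1.13 were above both controls. Tagln, also contractile, was below both, at -0.31 and -0.06. Of the reads of Myh11 1.10% were uniquely placed, and of those of Tagln 49.3%. These contractile markers were also named after their values were seen. Rgs5 stood at -1.12 and -1.14 with hsa-miR-199a-3p, on 43 reads against 78 with cel-miR-67 and 72 in mock.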

How the data were processed

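RNA-seq had been made with the TruSeq kit from total RNA, per the labels' protocols, and samples were grouped by the treatment in the labels. The deposited files give, per the file headers, counts of total and of uniquely placed reads per RefSeq transcript record, and RPKM, which in the deposited values equals total reads scaled to record length and to the summed reads of the library. CASAVA 1.8 and mm8 are named, without a role, in the submitters' processing notes. The mapping program and the treatment of shared reads are not given in the sources used here.

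Records were given current symbols by accession where the RefSeq table (GRCm38.p6) held them (27922 records, 77.4%), the other 8143 keeping the file's symbol, and total reads were summed per gene. TMM factors came from edgeR 4.0.16 (R 4.3.3), used for scaling only. Log2 ratios of CPM used a prior count of 0.5 and genes averaging 1 CPM or more. With 0 residual degrees of freedom no p-value was computed. A gene was called when it passed the stated fold (any, 1.5 or 2) against cel-miR-67 and against mock in the same direction. Ratio intervals are exact conditional binomial (Clopper-Pearson) 95% intervals. A count of 0, taking 3 reads as the limit, allows up to 0.0745 CPM (hsa-miR-199a-3p), 0.0849 (hsa-miR-590-3p), 0.0897 (cel-miR-67) and 0.0987 (mock). Alternatives were total-count scaling, DESeq2 1.42.0 size factors, unique reads, deposited RPKM, the record with the most reads, a prior count of 5, other filters and each control alone. The steps were tested on simulated data.

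Named list genes were, per list and microRNA, up to 2 highest and 2 lowest against cel-miR-67 among those 1.5-fold from both controls, plus the most abundant. Markers named were Myh6, Tnnt2, Col1a1 and those 2-fold from both controls. The members, lists and rules were chosen with earlier results of these data known. Python 3.11.15, numpy 2.4.6, pandas 2.3.3, scipy 1.17.1 and matplotlib 3.10.9 were used.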

Additional observations from a re-analysis of the deposited data

How the results depend on the processing

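The numbers of cytokinesis genes above both controls and at least 1.5-fold higher stayed within 1.5 times the reported numbers under every alternative run, except that with mock as the only control 10 genes were at least 1.5-fold higher under hsa-miR-590-3p. The 2-fold rule was the most sensitive. Under hsa-miR-199a-3p it was met by 4 genes with deposited RPKM, 4 with total-count scaling, 5 with mock as the only control and 2 with the record with the most reads, and under hsa-miR-590-3p by 1 with mock as the only control. Total-count scaling moved the median log2 ratio of all genes by 0.11 (hsa-miR-199a-3p against mock), to 0.10. On uniquely placed reads alone the median log2 ratio of the 10 genes under hsa-miR-199a-3p against mock was 0.71, 0 genes were below both controls, and Kif20a turned to -0.030 for cel-miR-67 against mock, on 36 and 34 reads. With only the record with the most reads, 1 gene, Cep55, was at least 1.5-fold below both controls under hsa-miR-199a-3p, and Cep55 with hsa-miR-590-3p turned to -0.028 against cel-miR-67. Cep55 under hsa-miR-199a-3p was below cel-miR-67 in every setting run, at -0.38 to -1.18, and below hsa-miR-590-3p at -0.71 to -1.36. DESeq2 size factors, a prior count of 5, a minimum of 5 CPM and no filter changed no count of cytokinesis genes. The cause of these changes was not tested. No paired analysis was possible because each condition had a single library.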
